A study of Mus musculus with 20 samples.

Results

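The genes described here are 8 enzymes of the citric acid cycle and its entry step, Cs, Idh2, Idh3a, Ogdh, Sucla2, Fh1, Mdh2 and Pdha1, together with Pdk4, a kinase that acts on the Pdha1 protein. They were chosen by symbol. They make up 9 of the 47069 genes in the deposited count table, and all 9 were among the 17622 genes that passed a filter on low counts and were tested. The values come from RNA-seq of kidneys taken at 15 weeks of age from 20 male mice of the strain 129SJ x C57Bl/6J. The WT group held 5 mice that were not treated. The other 3 groups were Col4a3-/- mice, a model of Alport syndrome which lack a working gene for a chain of basement membrane collagen, α3(IV), in all cells. Of these, 6 received PBS by weekly subcutaneous injection (Veh), 6 were given 50 mg/kg lademirsen, which blocks miR-21, by the same route and schedule (anti-miR-21), and 3 received the ACE inhibitor ramipril at 11 mg/L in drinking water (ACEi). Treatment began at week 5. The deposited library table gives the ramipril dose as 4 mg/kg instead. The methods of the study state that ACEi mice had PBS injections too. WT mice had no injections and no group analysed here received a control oligonucleotide, so an effect of injection or of oligonucleotide chemistry cannot be told apart from the comparison of Veh with WT or of anti-miR-21 with Veh.

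The citric acid cycle oxidizes acetyl groups inside mitochondria and passes their electrons to the respiratory chain. Pyruvate enters it through the pyruvate dehydrogenase complex, which is switched off when a pyruvate dehydrogenase kinase such as Pdk4 phosphorylates its E1α subunit, the product of Pdha1. Kidney tubules, above all the proximal tubule, are rich in mitochondria and depend on the cycle for the energy of sodium-coupled transport, and they take most of their fuel from fatty acids.

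The oligonucleotide that distinguishes the anti-miR-21 group acts on 1 mature miRNA. It is printed here because its seed, bases 2 to 8 and in capitals, sets which transcripts it can pair with. It lies at chr11:86584120-86584141 of GRCm38.p6 on the minus strand, and the sequence is from RefSeq.
mmu-miR-21a-5p: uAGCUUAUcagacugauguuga
The reverse complement of this seed, ATAAGCT, was searched in the 3′ UTR of 1 transcript of each gene (GENCODE annotation, sense strand). It occurred in 1 of the 9 genes, Pdha1, and in 5.9% of the 19957 genes with an annotated 3′ UTR. The Pdha1 match lies at chrX:160122409-160122431 of GRCm38 on the minus strand and is shown with the bases before it, with the match in capitals.
Pdha1 3′ UTR site: agttgcaaccagtctATAAGCTc
The RefSeq promoter table, which gives 250 bases before and 50 bases after a transcription start on GRCm38.p6, matched 8 of the 9 genes, and Idh3a was the gene without a match. The promoters of Sucla2, the enzyme gene that fell most in Veh, and of Pdk4, the 1 gene of the 9 that did not fall, are printed to set the extremes of the gene set side by side. Sucla2 lies at chr14:73552536-73552835 on the plus strand, a start inside the Ensembl gene, and Pdk4 at chr6:5496229-5496528 on the minus strand. Capitals mark matches to 5 motifs searched on both strands, which were AAGGTCA (the site of estrogen-related receptors), TGCGCA (the core of the NRF1 site), CCAAT (the CCAAT box), GGGCGG (the GC box) and TGACG (the core of the cAMP response element).
Sucla2 promoter: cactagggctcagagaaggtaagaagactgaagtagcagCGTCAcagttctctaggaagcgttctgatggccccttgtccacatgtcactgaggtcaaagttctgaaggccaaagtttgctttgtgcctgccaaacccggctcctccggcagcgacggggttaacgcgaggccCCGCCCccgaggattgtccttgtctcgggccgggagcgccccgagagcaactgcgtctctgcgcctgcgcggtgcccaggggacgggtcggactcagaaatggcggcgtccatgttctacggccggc
Pdk4 promoter: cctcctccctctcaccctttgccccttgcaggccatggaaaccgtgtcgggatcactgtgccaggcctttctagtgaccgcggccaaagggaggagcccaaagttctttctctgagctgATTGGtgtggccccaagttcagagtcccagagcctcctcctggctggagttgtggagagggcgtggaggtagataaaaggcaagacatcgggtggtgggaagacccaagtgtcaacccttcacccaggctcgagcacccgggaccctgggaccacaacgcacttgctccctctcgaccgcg
In this window Sucla2 held 1 TGACG and 1 GGGCGG, and Pdk4 held 1 CCAAT. Counted at any start of a gene, the GC box GGGCGG was found in 6 of the 8 genes (38.2% of the 27025 mouse genes in the table), TGACG in 5 (23% of genes), CCAAT in 5 (41.1%), TGCGCA in Ogdh and Mdh2 (8.79%) and AAGGTCA in Ogdh (5.38%). Ogdh had 6 starts, of which 2 held TGCGCA and 1 held AAGGTCA, and the other 7 genes had 1 start each. Over the 32851 single promoters the shares were 35.7% for GGGCGG, 20.8% for TGACG, 37.4% for CCAAT, 7.76% for TGCGCA and 4.72% for AAGGTCA. These counts describe letters in a short window and no binding was measured.

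Counts on genes summed to between 28474301 and 29479629 per mouse, with a median of 29026772, so depth was nearly equal in all libraries. Levels are given as CPM, which are each gene's share of the library total adjusted by TMM factors. The TMM factors differed by group, from 0.771 to 0.85 in WT, from 1.12 to 1.26 in Veh, from 0.881 to 1.04 in the anti-miR-21 group and from 0.976 to 1.05 in the ACEi group. This matters for sizes, since library totals alone moved the median over all genes of the log2 fold change between Veh and WT from 0.07 to 0.65 and the genes called from 6869 higher and 5998 lower to 11623 higher and 2684 lower. Since a scaling moves all genes alike, values relative to that median do not depend on it, and for Cs, the enzyme gene that differed least, this relative value was −0.86. Fold changes are on the log2 scale from edgeR's quasi-likelihood test with Benjamini-Hochberg adjustment over all genes tested, and a gene was called at an adjusted p under 0.05. Col4a3 itself had 217 ± 16.4 CPM (SD, n = 5) in WT, 37.8 ± 7.63 in Veh (n = 6), 58.8 ± 11.1 with anti-miR-21 (n = 6) and 48.5 ± 6.97 with ACEi (n = 3), a log2 fold change of −2.52 between Veh and WT (standard error 0.14, adjusted p = 7.13e-12).

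Kidney is the labelled tissue, and its markers Umod and Slc34a1 had 5133 and 8517 CPM in WT, although the extraction protocol in the labels speaks of adipose tissue. Adipoq, a defining adipocyte gene, was at 10 CPM or more in 4 mice, Veh A1 at 29.5, Veh A4 at 33.1, Veh A9 at 26.0 and anti-miR-21 A12 at 30.1, and at most 6.42 CPM in the other 16. Calls for the 9 genes, ratios and lists given here that changed without these 4 mice are given both ways. Flow cell A carried 13 of the libraries and flow cell B carried 7 (WT 3 and 2, Veh 4 and 2, anti-miR-21 5 and 1, ACEi 1 and 2).

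All 8 enzyme genes fell in Veh compared to WT, and Pdk4 did not. In Veh, Cs, citrate synthase, fell by 42.1% and Sucla2, a subunit of succinyl-CoA synthetase, fell by 65.5%, and the other 6 lay between. The CPM of every Veh mouse lay below those of every WT mouse for each of the 8. Among all genes tested, 34.0% were called lower in Veh and 26.1% were lower without overlap, so a call of this direction was common. With library totals alone all 8 were still called, from −0.96 for Sucla2 to −0.20 for Cs, and still did not overlap, where 15.2% of all genes were called lower and 11.2% were lower without overlap. The median log2 fold change was −1.36 over the 8 enzymes and 0.07 over all genes tested. The summed level of the 8 was 3836 ± 228 CPM (SD, n = 5) in WT, 1622 ± 183 in Veh (n = 6), 2794 ± 306 with anti-miR-21 (n = 6) and 2522 ± 150 with ACEi (n = 3). Whole kidneys were sequenced, so fewer tubule cells and less RNA per tubule cell cannot be told apart.

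**Figure D1:**
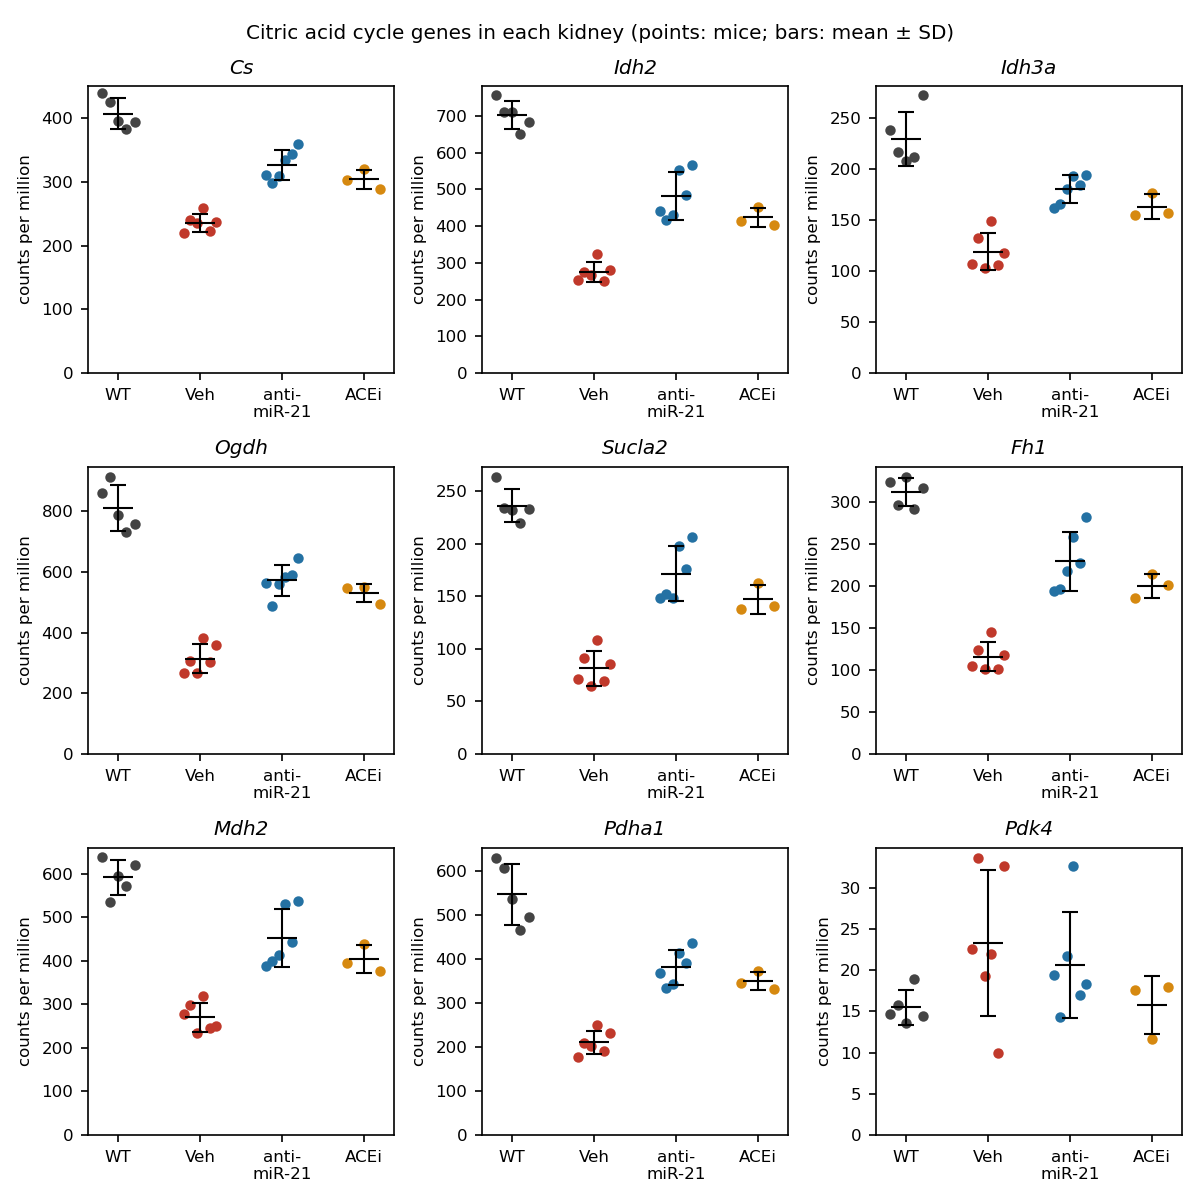
Level of each of the 9 genes in each mouse in CPM after TMM scaling, with 1 panel per gene, 1 point per mouse, and bars for the group mean ± SD. In the 8 enzyme panels the Veh points lie below all WT points and below all points of both treated groups, whereas the groups overlap for Pdk4.

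WT values below are listed for mice A3, A6, A14, A17 and A18 in this order, and ACEi values for A11, A13 and A23. Pdha1 (ENSMUSG00000031299, chrX:160122209-160138413, minus strand) encodes the E1α subunit of pyruvate dehydrogenase, which commits pyruvate to the cycle. It had 629, 605, 537, 466 and 494 CPM in WT and ranged from 178 to 251 CPM with a median of 205.02 in Veh. With anti-miR-21 it ranged from 334 to 436 CPM with a median of 379, and the ACEi mice had 346, 372 and 331 CPM. The treated mice lay between the WT and the Veh mice without touching either. The log2 fold change between Veh and WT was −1.38 (standard error 0.10, adjusted p = 1.83e-10). Relative to Veh, it was 0.86 (standard error 0.09, adjusted p = 3.17e-07) with anti-miR-21 and 0.74 (standard error 0.11, adjusted p = 5.48e-05) with ACEi.

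Cs (ENSMUSG00000005683, chr10:128337734-128362479, plus strand) encodes citrate synthase, the enzyme that joins acetyl-CoA to oxaloacetate and opens the cycle. The WT mice had 439.6, 426, 395, 382 and 393 CPM, and the Veh mice ranged from 219.9 to 259 CPM with a median of 236. The anti-miR-21 mice ranged from 299 to 359.6 CPM with a median of 323, and the ACEi mice had 304, 319.5 and 289. The WT, Veh and treated mice formed 3 ranges with no overlap, and the treated groups overlapped each other. Cs fell by 0.79 on the log2 scale in Veh (standard error 0.06, adjusted p = 9.1e-10), the smallest fall of the 8 enzyme genes. It was higher than in Veh by 0.47 (standard error 0.06, adjusted p = 2.29e-06) with anti-miR-21 and by 0.37 (standard error 0.07, adjusted p = 0.000671) with ACEi. With library totals alone, the fold change between Veh and WT was −0.20 and that between ACEi and Veh was 0.10, which no longer passed (adjusted p = 0.156).

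Idh2 (ENSMUSG00000030541, chr7:80094846-80115392, minus strand), the NADP-dependent isocitrate dehydrogenase of mitochondria, supplies NADPH for reduction of peroxides. Its level was 756, 709.9, 712, 652 and 684 CPM in the WT mice and ranged from 249 to 324 CPM with a median of 271 in Veh. It ranged from 416 to 566 CPM with a median of 463 with anti-miR-21 and stood at 414, 453 and 404 CPM with ACEi. Every treated mouse lay above every Veh mouse and below every WT mouse. Between Veh and WT the log2 fold change was −1.35 (standard error 0.09, adjusted p = 5.77e-11), and relative to Veh it was 0.81 with anti-miR-21 (adjusted p = 1.79e-07) and 0.62 with ACEi (adjusted p = 9.21e-05).

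Idh3a (ENSMUSG00000032279, chr9:54586334-54604661, plus strand) encodes the catalytic subunit of the NAD-dependent isocitrate dehydrogenase, a regulated step of the cycle. In WT it had 238, 217, 208.3, 212.3 and 273 CPM, and in Veh it ranged from 103 to 149 CPM with a median of 112. The anti-miR-21 mice ranged from 162 to 195 CPM with a median of 183 and the ACEi mice had 155, 177 and 157 CPM. WT mouse A18 stood above the other 4 WT mice, and the groups did not overlap with Veh. The log2 fold change in Veh was −0.95 (standard error 0.10, adjusted p = 1.96e-08), the second smallest of the 8. It was 0.60 (standard error 0.09, adjusted p = 1.41e-05) with anti-miR-21 and 0.45 (standard error 0.11, adjusted p = 0.00291) with ACEi relative to Veh, and the latter fell to 0.18 with library totals alone and did not pass (adjusted p = 0.0827).

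Ogdh (ENSMUSG00000020456, chr11:6291633-6356642, plus strand) encodes the E1 subunit of 2-oxoglutarate dehydrogenase, the complex that makes succinyl-CoA. The 5 WT mice had 858, 912, 787, 732 and 756 CPM. Veh mice ranged from 265 to 383 CPM with a median of 305, anti-miR-21 mice from 486 to 646 CPM with a median of 573, and the ACEi mice had 545, 549 and 496 CPM. The lowest treated mouse, anti-miR-21 A8, lay above the highest Veh mouse, A16. Ogdh fell by 1.37 on the log2 scale in Veh (standard error 0.10, adjusted p = 1.91e-10) and was higher than in Veh by 0.87 with anti-miR-21 (adjusted p = 2.71e-07) and by 0.76 with ACEi (adjusted p = 4.1e-05).

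Sucla2 (ENSMUSG00000022110, chr14:73525319-73596142, plus strand) encodes the β subunit of the ADP-forming succinyl-CoA synthetase, which makes ATP directly in the cycle. Its WT values were 263, 233, 232, 219.7 and 233 CPM, against a range in Veh from 64.3 to 108 CPM with a median of 78.1. With anti-miR-21 the range was from 148 to 206.3 CPM with a median of 164, and with ACEi the values were 138, 163 and 141 CPM. The highest anti-miR-21 mouse, A22, and the next highest, A12 at 197.5 CPM, came nearest to the lowest WT mouse, A17, and all treated mice lay between the WT and the Veh mice. The log2 fold changes were −1.53 (standard error 0.12, adjusted p = 6.47e-10) in Veh compared to WT, 1.07 (standard error 0.12, adjusted p = 2.64e-07) with anti-miR-21 compared to Veh and 0.85 (standard error 0.14, adjusted p = 9.14e-05) with ACEi compared to Veh. In each of these comparisons Sucla2 had the largest fold change of the 8 enzyme genes.

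Fh1 (ENSMUSG00000026526, chr1:175600374-175625635, minus strand) encodes fumarase, which hydrates fumarate to malate. It measured 325, 298, 331, 293 and 318 CPM in WT and ranged from 101 to 146 CPM with a median of 112 in Veh. Anti-miR-21 mice ranged from 195 to 283 CPM with a median of 222.7, and ACEi mice had 186, 214.5 and 202.1 CPM. No treated mouse overlapped with WT or Veh. The log2 fold change was −1.43 (standard error 0.10, adjusted p = 2.13e-10) in Veh, and relative to Veh it was 0.98 with anti-miR-21 (adjusted p = 1.32e-07) and 0.79 with ACEi (adjusted p = 4.44e-05).

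Mdh2 (ENSMUSG00000019179, chr5:135778480-135790398, plus strand), the mitochondrial malate dehydrogenase, regenerates oxaloacetate and also serves the malate-aspartate shuttle. The WT values were 639, 536, 595, 573 and 619 CPM and those of Veh ranged from 233 to 318 CPM with a median of 264. Values with anti-miR-21 ranged from 388 to 539 CPM with a median of 429, and those with ACEi were 395, 439.7 and 377. The anti-miR-21 mouse A22 lay above the lowest WT mouse, A6, so that Mdh2 was the 1 enzyme gene whose anti-miR-21 and WT mice overlapped. In Veh the log2 fold change was −1.13 (standard error 0.10, adjusted p = 2.9e-09), with anti-miR-21 it was 0.74 (adjusted p = 1.87e-06) and with ACEi 0.58 (adjusted p = 0.000561), both relative to Veh.

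Pdk4 (ENSMUSG00000019577, chr6:5483351-5496309, minus strand) encodes the pyruvate dehydrogenase kinase that is induced by fasting and fatty acids and that inactivates the E1α subunit. Its level was low in all groups. The WT mice had 14.7, 15.8, 13.6, 18.9 and 14.5 CPM, and the Veh mice spread from 9.95 to 33.7 CPM with a median of 22.3. With anti-miR-21 it ranged from 14.3 to 32.7 CPM with a median of 18.9, and the ACEi mice had 17.6, 11.7 and 17.9. Veh A4, anti-miR-21 A12 and Veh A20 were the highest of the 20 mice and Veh A19 was the lowest, so the Veh group spanned the range of every other group. The log2 fold change between Veh and WT was 0.59 (standard error 0.24, adjusted p = 0.0353), a call made for 39.0% of all genes tested in this direction. This call was lost without the 4 mice with Adipoq at 10 CPM or more (0.48, adjusted p = 0.115), without WT A3, A6, A14 or A18 in turn (0.55 to 0.60, adjusted p = 0.0538 to 0.0739), without Veh A4 (0.46, adjusted p = 0.0953), without Veh A20 (0.48, adjusted p = 0.089) and on flow cell A alone (0.56, adjusted p = 0.159). Relative to Veh, Pdk4 was at −0.18 (standard error 0.23, adjusted p = 0.514) with anti-miR-21 and −0.57 (standard error 0.29, adjusted p = 0.124) with ACEi, and neither passed. With single mice left out these values ranged from −0.36 to −0.028 and from −0.70 to −0.39. With library totals alone it was 1.17 in Veh compared to WT (adjusted p = 0.00021), and the differences from Veh passed at −0.53 with anti-miR-21 (adjusted p = 0.0456) and −0.83 with ACEi (adjusted p = 0.0221).

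In both treated groups the 8 enzyme genes stood between the Veh and the WT level. All 8 were called higher than Veh with anti-miR-21, by 0.47 to 1.07 on the log2 scale, where 28.8% of all genes tested were called higher. All 8 were also called higher with ACEi, by 0.37 to 0.85, where 21.0% of all genes were. In both comparisons each treated mouse had more than each Veh mouse for every 1 of the 8, an arrangement met by 18.6% of all genes with anti-miR-21 and by 19.8% with ACEi. On library totals alone this arrangement held for all 8 with anti-miR-21 (9.22% of all genes) and for 6 with ACEi (9.60%), where Cs and Idh3a overlapped with Veh, and the shares of all genes called higher were 14% and 10.8%. The median log2 fold change of the 8 was 0.83 with anti-miR-21 against −0.04 for all genes tested, and 0.68 with ACEi against −0.05. The same Veh mice serve as controls in both comparisons and also enter that of Veh with WT, so these comparisons are not independent.

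**Figure D2:**
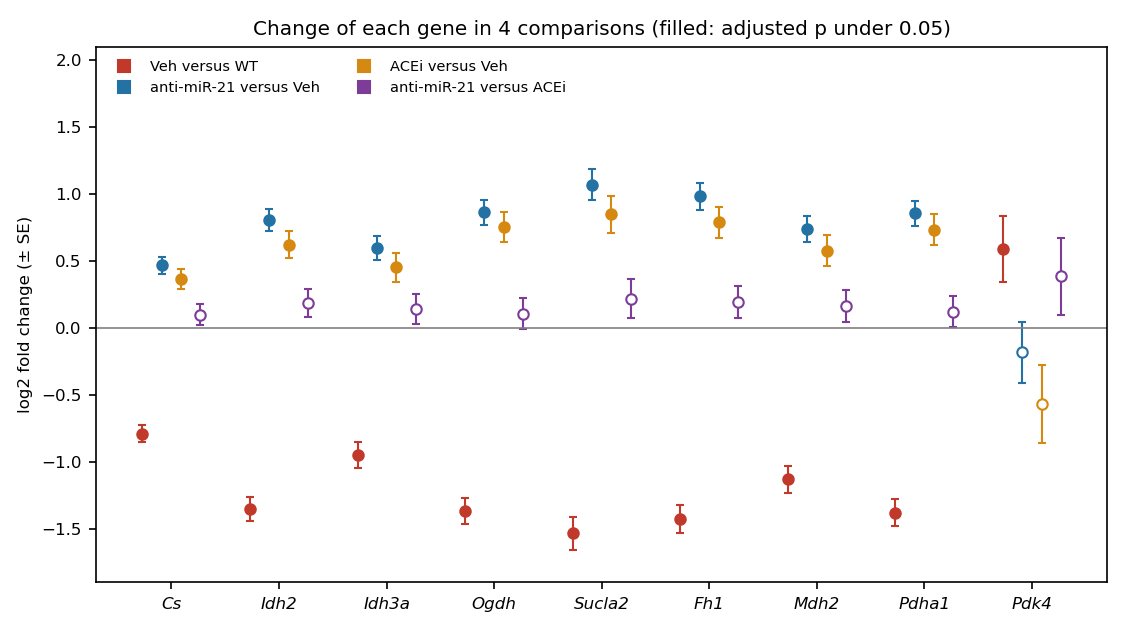
Log2 fold change (vertical axis) of each of the 9 genes (horizontal axis) in 4 comparisons in colour, with bars of 1 standard error and filled points for an adjusted p under 0.05. The 8 enzyme genes lie between −1.53 and −0.79 for Veh compared to WT and above 0 for both treatments compared to Veh, and no gene passed between the treatments.

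Compared directly, anti-miR-21 and ACEi did not differ past the threshold for any of the 9 genes. The log2 fold change of anti-miR-21 against ACEi was between 0.10 for Cs and 0.22 (standard error 0.14) for Sucla2 among the enzymes, with adjusted p from 0.426 to 0.698 from edgeR, and 0.39 (standard error 0.29, adjusted p = 0.558) for Pdk4. At an unadjusted p under 0.05 none of the 9 passed in edgeR, and DESeq2 also called 0 of the 8 enzyme genes. Among all genes tested 0.584% were called in either direction, and with 3 ACEi mice the standard errors were 0.08 to 0.14 for the enzymes. As a position between the mean log2 level of Veh (0%) and of WT (100%), the anti-miR-21 mice stood at 69.5% ± 13.9 (SD, n = 6) for Sucla2 and 59.2% ± 14 for Idh2, the highest and the lowest of the 8. The ACEi mice stood at 56% ± 8.4 (SD, n = 3) for Sucla2 and 46.2% ± 6.41 for Idh2, again the highest and the lowest. Anti-miR-21 mouse A22 and ACEi mouse A13 had the highest level of their group for all 8 enzyme genes, as did A16 in Veh.

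Neither treatment brought the enzyme genes to the WT level. All 8 were called lower than WT with anti-miR-21, from −0.32 for Cs to −0.54 for Idh2, where 19.8% of all genes tested were called lower. For 7 of the 8 the anti-miR-21 mice did not overlap with WT (9.06% of all genes). All 8 were called lower with ACEi, from −0.42 for Cs to −0.73 for Idh2, where 22.5% of all genes were, and none of the 8 overlapped with WT (22.3%). The calls for Cs, Idh3a and Mdh2 with anti-miR-21 rested on the scaling, because library totals alone left 5 of 8 (−0.08 with adjusted p = 0.176 for Cs, −0.11 with adjusted p = 0.241 for Idh3a and −0.15 with adjusted p = 0.0737 for Mdh2). With ACEi, library totals alone left out Cs (−0.11, adjusted p = 0.124) and Idh3a (−0.18, adjusted p = 0.101). Pdk4 stood at 0.41 (standard error 0.25, adjusted p = 0.183) relative to WT with anti-miR-21 and at 0.02 (standard error 0.29, adjusted p = 0.954) with ACEi. On library totals alone, 5.66% of all genes were called lower than WT with anti-miR-21 and 7.63% with ACEi. The anti-miR-21 mice then did not overlap with WT for 4 of the 8 (2.53% of all genes), with Cs, Idh3a, Fh1 and Mdh2 overlapping, and the ACEi mice for 7 (7.90%), with Idh3a overlapping. The Pdk4 value with anti-miR-21 passed on that scale, at 0.64 (adjusted p = 0.0357).

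The fall was not even across the cycle. To compare genes within a mouse, each was set against the mean log2 CPM of the 8 enzymes of that mouse, a measure that hardly depends on scaling between libraries, and a further 5 pairs of genes were compared, which gave 14 ratios in 4 comparisons or 56 two-sided exact permutation tests. Of these, 9 passed when Veh was compared to WT and 8 when anti-miR-21 was compared to Veh. None passed for ACEi compared to Veh or for the treatments compared with each other. With 3 against 6 mice the smallest p possible is 0.0238, which came to 0.0556 after adjustment over the 56.

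Cs rose relative to the mean of the 8 enzymes in Veh by 0.46 (exact permutation test, p = 0.00433, adjusted p = 0.0186), and Idh3a by 0.30 (exact permutation test, p = 0.013, adjusted p = 0.0428). The call for Idh3a was lost without any single mouse other than WT A18 (0.27 to 0.31, adjusted p = 0.0593 to 0.0856), and A18 was the WT mouse with the highest Idh3a. Sucla2 fell relative to that mean, with a change of −0.31 (exact permutation test, p = 0.00433, adjusted p = 0.0186), as did Fh1 with −0.19 (exact permutation test, p = 0.00433, adjusted p = 0.0186). That mean includes the gene compared, so the shifts of the 8 must balance out, and a rise of some forces a fall of others. The falls of Sucla2 and Fh1 are therefore not results separate from the rises of Cs and Idh3a. The value 0.00433 is the smallest that 5 against 6 mice can give. The shift of Idh2 was −0.11 and did not pass (adjusted p = 0.0556), nor did those of Ogdh (−0.13, adjusted p = 0.136), Pdha1 (−0.13, adjusted p = 0.129) and Mdh2 (0.11, adjusted p = 0.228). With anti-miR-21 compared to Veh, the enzyme ratios that passed were those of Cs, at −0.33, Idh3a at −0.20, Sucla2 at 0.28 and Fh1 at 0.18 (exact permutation test, adjusted p = 0.0186 each). The same Veh mice enter this comparison and that of Veh with WT, so shifts of opposite sign are not independent, here and for the ratios below. ACEi compared to Veh gave −0.29 for Cs, −0.19 for Idh3a, 0.22 for Sucla2 and 0.15 for Fh1, all at the smallest possible p and an adjusted p of 0.0556. Without the 4 mice with Adipoq at 10 CPM or more, no ratio could pass, because the smallest p for 3 Veh mice against 5 WT or anti-miR-21 mice was 0.0357, or 0.143 after adjustment. Between Veh and WT the ratios were then 0.41 for Cs, 0.28 for Idh3a, −0.27 for Sucla2 and −0.19 for Fh1, and with anti-miR-21 relative to Veh they were −0.27, −0.17, 0.23 and 0.17.

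**Figure D3:**
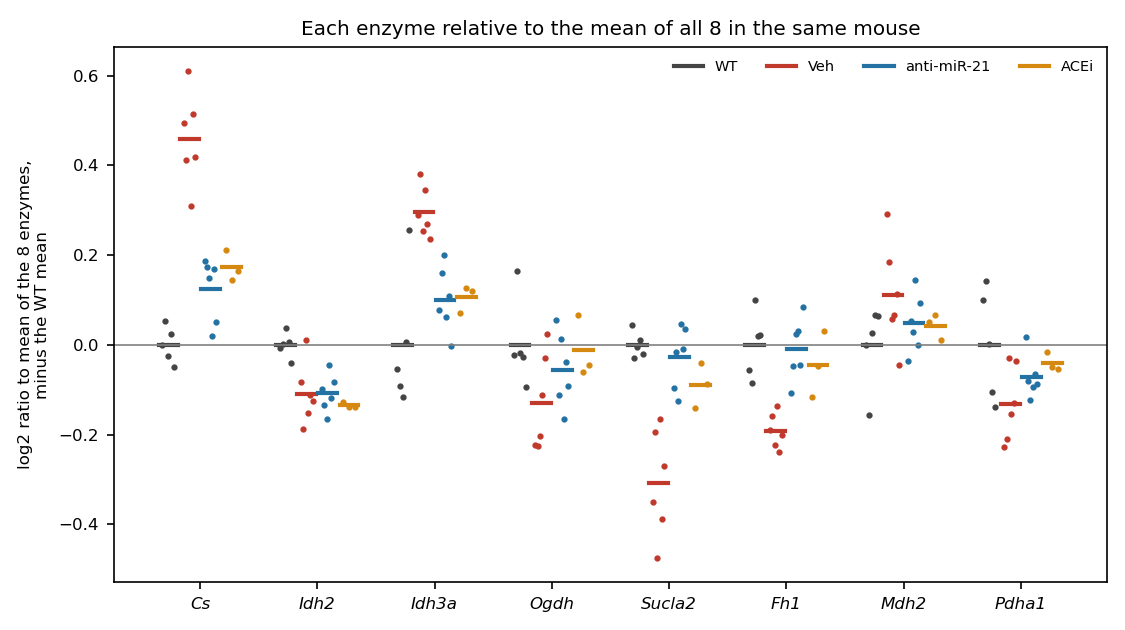
Log2 CPM of each of the 8 enzyme genes relative to the mean of the 8 enzymes of the same mouse (vertical axis), shown as the difference from the WT mean of that ratio, with 1 point per mouse, a bar for the group mean and the 4 groups in colour. In Veh the mice lie above 0 for Cs and Idh3a and below 0 for Sucla2 and Fh1, and the means of both treated groups lie nearer to 0, while 1 WT mouse lies among the Veh mice for Idh3a.

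Pdk4 rose against the enzymes by 1.74 (exact permutation test, p = 0.00433, adjusted p = 0.0186) in Veh, and its ratio to Pdha1, the transcript of its substrate, rose by 1.88 (exact permutation test, p = 0.00433, adjusted p = 0.0186). Its ratio to Pdk2, the pyruvate dehydrogenase kinase that is expressed in most tissues, rose by 2.0 (exact permutation test, p = 0.00433, adjusted p = 0.0186). With anti-miR-21 the ratio of Pdk4 to the enzymes was lower than in Veh, with a difference of −0.93 (exact permutation test, p = 0.013, adjusted p = 0.0428), that to Pdha1 differed by −0.99 (exact permutation test, p = 0.013, adjusted p = 0.0428) and that to Pdk2 by −1.11 (exact permutation test, p = 0.00866, adjusted p = 0.0346). With each mouse left out in turn these 3 differences ranged from −1.31 to −0.82. The call against the enzymes was lost without any single mouse other than Veh A19 or anti-miR-21 A12. The call against Pdha1 also held without anti-miR-21 A10, and that against Pdk2 without A10 or A2 of that group. Without the 4 mice with Adipoq at 10 CPM or more, the 3 ratios were 1.503, 1.61 and 1.73 higher in Veh than in WT, to the enzymes, Pdha1 and Pdk2 in this order. These stood at the smallest p that the remaining mice allow, and none passed (exact permutation test, adjusted p = 0.143). With anti-miR-21 relative to Veh they were then −0.80, −0.84 and −0.92, and the remaining mice of the groups overlapped (exact permutation test, p = 0.107, adjusted p = 0.231 each).

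Mitochondrial and cytosolic forms of the same enzyme changed to different extents. The ratio of Idh2 to Idh1, its cytosolic counterpart, changed by −0.43 (exact permutation test, p = 0.00433, adjusted p = 0.0186) between Veh and WT. The ratio of Mdh2 to Mdh1, the cytosolic malate dehydrogenase, rose by 0.79 (exact permutation test, p = 0.00433, adjusted p = 0.0186), and with anti-miR-21 it was lower than in Veh, with a difference of −0.63 (exact permutation test, p = 0.00216, adjusted p = 0.0186). The difference for Idh2 to Idh1 between anti-miR-21 and Veh was 0.02 and did not pass (exact permutation test, adjusted p = 0.881). ACEi relative to Veh gave −0.20 for Idh2 to Idh1 (exact permutation test, p = 0.0714, adjusted p = 0.129) and −0.56 for Mdh2 to Mdh1 at the smallest possible p (exact permutation test, adjusted p = 0.0556), and neither passed. Leaving out the 4 mice with Adipoq at 10 CPM or more gave −0.48 for Idh2 to Idh1 and 0.62 for Mdh2 to Mdh1 between Veh and WT. With anti-miR-21 relative to Veh, Mdh2 to Mdh1 was then −0.47. Each stood at the smallest p that the remaining mice allow, and none passed (exact permutation test, adjusted p = 0.143 each). Sucla2 and Suclg2, the β subunits of the ADP-forming and the GDP-forming synthetase, had a ratio that differed by 0.01 between Veh and WT (exact permutation test, adjusted p = 0.956).

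Levels of different genes were compared on the deposited FPKM, which are scaled per kilobase of transcript and by library totals. In WT, Mdh2 was the most abundant at 379.6 ± 15.9 FPKM (SD, n = 5), followed by Idh2 at 338 ± 10.2. Then came Pdha1 at 162 ± 18.2 and Fh1 at 155 ± 4.96, whose ranges overlapped. Next were Cs at 119 ± 5.92, Ogdh at 102 ± 9.28, Sucla2 at 98.9 ± 5.14 and Idh3a at 78.8 ± 8.59, where each overlapped with its neighbour in the order. Pdk4 was far below all of them at 3.68 ± 0.594. In Veh, Mdh2 at 261 ± 23.7 FPKM (SD, n = 6) and Idh2 at 200 ± 10.2 kept their places. Cs, the fifth in WT, was the third in Veh at 104 ± 3.27, overlapping with Pdha1 at 93.9 ± 9.13. Sucla2 was the last enzyme in Veh at 50.9 ± 8.84, overlapping with Ogdh at 60.2 ± 7.63 and Idh3a at 61.5 ± 6.87, and Pdk4 was at 8.4 ± 3.22.

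The remaining subunits of the cycle moved in the same direction as the 8 enzyme genes. Of all genes tested, 34.0% were called lower in Veh, and 28.8% were called higher than Veh with anti-miR-21 and 21.0% with ACEi. Of 11 further subunits, all 11 were called lower in Veh than in WT, among them Dld, the E3 subunit shared by 2-oxoacid dehydrogenases, at −1.60, Sdhb, the iron-sulfur subunit of succinate dehydrogenase, at −1.59, and Suclg1, the α subunit of succinyl-CoA synthetase, at −1.58. All 11 were called higher than Veh with either treatment. The other subunits of the pyruvate dehydrogenase complex, Dlat (−1.32), Pdhx (−1.22) and Pdhb (−1.17), also fell in Veh, and all 3 were called higher than Veh with each treatment. The median log2 fold change in Veh was −1.49 over the 11 and −1.22 over the 3.

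**Figure D4:**
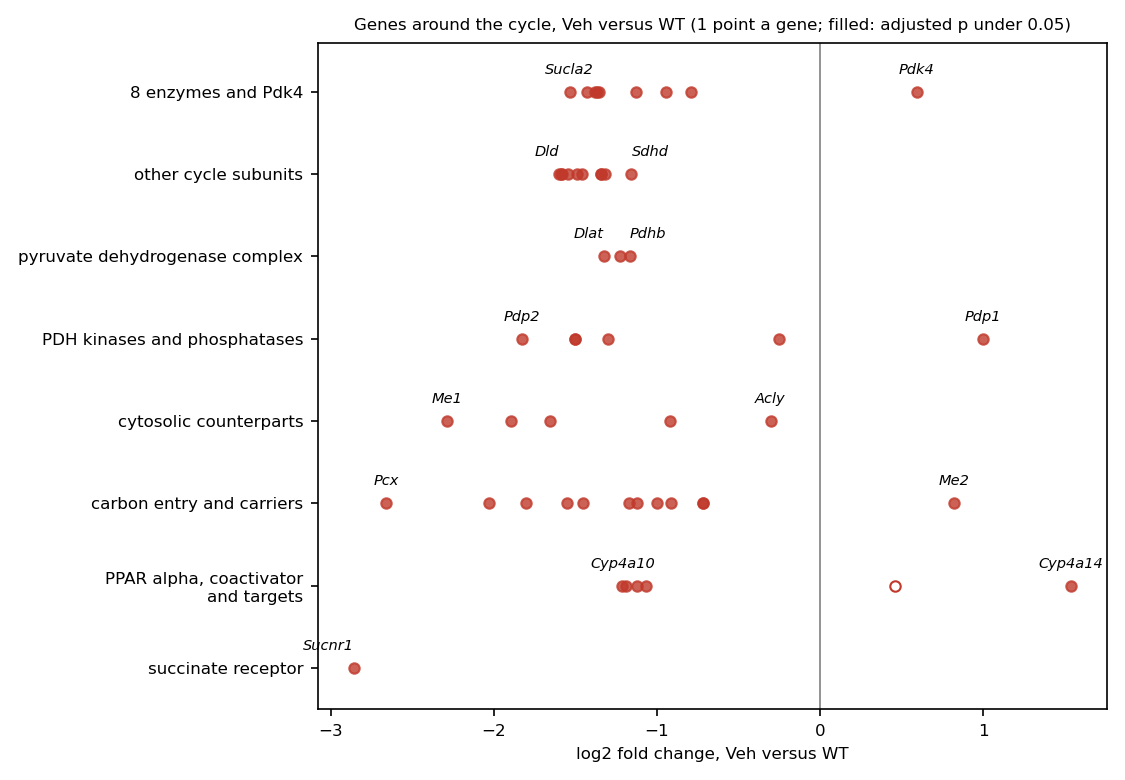
Log2 fold change between Veh and WT (horizontal axis) for the 9 genes and genes of 7 related lists, with 1 point per gene plotted, filled where the adjusted p was under 0.05, and without Acod1, which was at 0 in most WT mice. The 8 enzymes and the other cycle subunits plotted lie at −0.79 or below, and Pdk4, Pdp1, Me2 and Cyp4a14 are the filled points above 0.

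The regulators of pyruvate dehydrogenase did not move in 1 direction. In Veh 34.0% of all genes tested were called lower and 39.0% higher. Of 6 other kinases and phosphatases, 5 were called lower in Veh, namely Pdp2 (−1.82) and Pdpr (−1.30), a phosphatase and its regulatory subunit, and the kinases Pdk3 (−1.50), Pdk2 (−1.50) and Pdk1 (−0.25). Pdk1 was 0.33 and called higher with library totals alone, and did not pass with upper-quartile scaling (−0.14, adjusted p = 0.201). Pdp1, the phosphatase that reactivates the E1α subunit, rose by 1.0 (adjusted p = 1.19e-05). With anti-miR-21 Pdp1 was called lower than Veh at −0.62, a direction called for 30.5% of all genes tested. In the same comparison 4 of the list were called higher (28.8% of all genes) and Pdk1 did not pass (−0.08, adjusted p = 0.447). Pdk1 was called lower with anti-miR-21 when library totals alone were used (−0.42, adjusted p = 0.00153), where Pdpr was no longer called higher with anti-miR-21 (0.36, adjusted p = 0.229) or with ACEi (0.60, adjusted p = 0.114). With ACEi 4 were called higher (21.0% of all genes tested), and Pdp1 (−0.53) and Pdk1 (−0.32) were called lower, as were 19.1% of all genes tested. Without the 4 mice with Adipoq at 10 CPM or more, Pdpr was not called with anti-miR-21 (0.41, adjusted p = 0.169), and Pdpr (0.48, adjusted p = 0.187), Pdp1 (−0.48, adjusted p = 0.14) and Pdk1 (−0.23, adjusted p = 0.24) were not called with ACEi.

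The 5 cytosolic counterparts were all called lower in Veh, led by Me1, the cytosolic malic enzyme that makes NADPH, at −2.29, Mdh1 at −1.89 and Aco1, the iron regulatory protein that also acts as aconitase, at −1.66. Idh1 was at −0.92, and 34.0% of all genes tested were called lower in Veh. Acly, which splits citrate for lipid synthesis, was at −0.30 and turned to 0.28, called higher, with library totals alone. With anti-miR-21 all 5 were called higher than Veh (28.8% of all genes tested). With ACEi 4 were (21.0%), while Acly did not pass (0.17, adjusted p = 0.0956). The call for Acly with anti-miR-21 (0.22) was lost with upper-quartile scaling (0.15, adjusted p = 0.0618) and without the 4 mice with Adipoq at 10 CPM or more (0.15, adjusted p = 0.151), and its value turned to −0.12 with library totals alone (adjusted p = 0.191).

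Another list held 12 genes that bring carbon into the cycle or carry its intermediates across the inner membrane. In Veh 11 of the 12 were called lower, as were 34.0% of all genes tested. The 11 included Pcx, pyruvate carboxylase, at −2.66 and Slc25a10, the dicarboxylate carrier, at −2.03. Also among them were Mpc1, a subunit of the mitochondrial pyruvate carrier, at −1.80, and Slc25a13, an aspartate-glutamate carrier, at −1.55. Me2, a mitochondrial malic enzyme, was called higher at 0.82. Each treatment gave the reverse calls relative to Veh, with 11 higher and Me2 lower. Of all genes tested, 28.8% were called higher and 30.5% lower with anti-miR-21, and 21.0% and 19.1% with ACEi. With library totals alone Me3 (−0.14) and Slc25a1 (−0.13) did not pass between Veh and WT, and the number called higher than Veh was 9 with anti-miR-21 and 8 with ACEi. Me3 (0.03) and Slc25a1 (0.06) were those lost with anti-miR-21. With ACEi, Slc25a1 (0.04) and Slc25a12 (0.12) did not pass and Me3 turned to −0.05. Me3 had already lost its call with ACEi under RLE scaling (0.21, adjusted p = 0.0567) and under upper-quartile scaling (0.15, adjusted p = 0.173), as had Slc25a1 under the latter (0.23, adjusted p = 0.0786). Me2 was not called lower with ACEi without the 4 mice with Adipoq at 10 CPM or more (−0.32, adjusted p = 0.0992).

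Of 8 genes of the PPARα programme, which induces Pdk4 in fasting, 5 were called lower in Veh (34.0% of all genes tested). Among these were Cyp4a10 at −1.21, the coactivator gene Ppargc1a at −1.19, Ppara itself at −1.12 and Cpt1a, which admits long-chain fatty acids to mitochondria, at −1.07. Cyp4a14 was called higher at 1.54, and Angptl4 was among those that did not pass (0.46, adjusted p = 0.0853). Relative to Veh, 6 of the 8 were called higher with anti-miR-21 (28.8% of all genes) and 5 with ACEi (21.0%), and none was called lower. With library totals alone Angptl4 was called higher between Veh and WT (1.05) and Cyp4a10 did not pass (−0.64), and the number called higher than Veh was 5 with anti-miR-21 and 3 with ACEi, where Ppargc1a (0.19) and Cyp4a10 (0.86) did not pass. With upper-quartile scaling Angptl4 was called higher in Veh too (0.57, adjusted p = 0.0335). Without the 4 mice with Adipoq at 10 CPM or more, Cyp4a10 was not called between Veh and WT (−0.71, adjusted p = 0.0743) and the numbers called higher than Veh were again 5 and 3. In that fit 4330 of 17263 genes were called higher with anti-miR-21 and 3045 with ACEi.

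Of the genes around succinate and itaconate, Sucnr1, the receptor for extracellular succinate, fell by 2.86 on the log2 scale in Veh and was called higher than Veh by 2.35 with anti-miR-21 and 1.75 with ACEi. Acod1, which makes itaconate from cis-aconitate in macrophages, was at 0 in 4 of 5 WT mice and at 0.123 CPM in WT A17, and ranged from 0.56 to 1.73 CPM in Veh, a call for higher (adjusted p = 1.8e-06). It ranged from 0.15 to 0.538 CPM with anti-miR-21, lower than Veh (adjusted p = 0.00632), and from 0.23 to 0.784 CPM with ACEi, which did not pass (adjusted p = 0.145).

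Markers of the proximal tubule moved with the same groups. The summed level of 6 proximal tubule markers was 13079 ± 1265 CPM (SD, n = 5) in WT, 2182 ± 877 in Veh (n = 6), 8298 ± 1748 with anti-miR-21 (n = 6) and 7409 ± 1190 with ACEi (n = 3). Slc34a1, the phosphate cotransporter, was the most abundant of them in all groups. All 6 were called lower in Veh (34.0% of all genes tested). Relative to Veh, all 6 were called higher with anti-miR-21 (28.8% of all genes) and all 6 with ACEi (21.0%). Of these 12 calls 1 was lost with library totals alone or without the 4 mice with Adipoq at 10 CPM or more, that of Slc5a12 with anti-miR-21 (0.35, adjusted p = 0.196, and 0.40, adjusted p = 0.257). The median log2 fold change of these markers in Veh was −2.17, beyond the −1.36 of the 8 enzymes. Veh A16, which had the highest level of all 8 enzyme genes in its group, also had the highest sum of these markers in its group, at 3671 CPM. The part of tubule cell number in the levels of the enzyme genes was not tested.

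**Figure D5:**
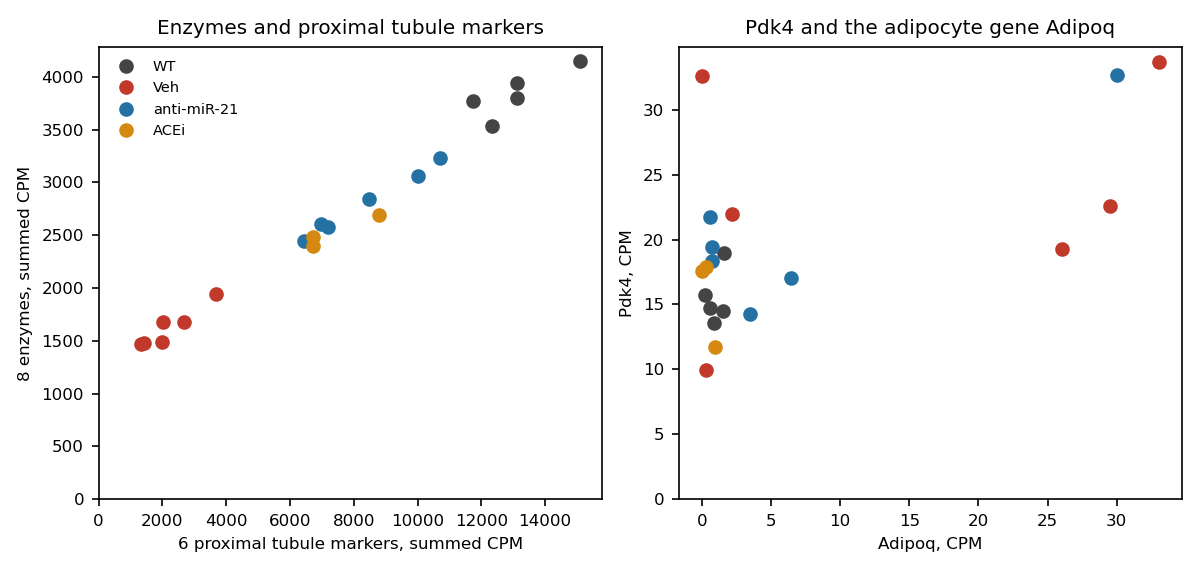
Left, summed CPM of the 8 enzyme genes against summed CPM of 6 proximal tubule markers, and right, Pdk4 against Adipoq, with 1 point per mouse coloured by group. The Veh mice lie lowest on both axes of the left panel and the WT mice highest, and on the right the 4 mice with Adipoq at 10 CPM or more stand apart.

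Other nephron segments fell less uniformly in Veh. Calls of either direction were common there, with 34.0% of all genes tested called lower and 39.0% higher. Of 4 markers of the thick ascending limb, 3 were called lower in Veh and Cldn16 higher, with a summed level of 6102 CPM in WT and 3206 in Veh, most of it Umod, whose own call was lost with library totals alone (−0.33, adjusted p = 0.0848). Of 4 distal tubule markers 3 were lower and Trpm6 higher (1023 to 319 CPM, most abundant Slc12a3), and of 6 collecting duct markers 5 were lower and Aqp2, the most abundant, did not pass (671 to 371 CPM), while with library totals alone Scnn1g, called lower, turned to 0.16 and Avpr2, also called lower, did not pass (−0.23, adjusted p = 0.167). The sums of the glomerular and vascular markers were nearer to their WT level in Veh. Of 4 podocyte markers 3 were called higher and Nphs1 did not pass (211.6 to 259 CPM, most abundant Podxl), and of 4 endothelial markers 2 were called higher, Kdr lower and Emcn, the most abundant, did not pass (169 to 201.9 CPM). With library totals alone Kdr did not pass and Nphs1 and Emcn were called higher, as were 11623 of the 17622 genes tested. Emcn was called higher with upper-quartile scaling as well (0.51, adjusted p = 0.0226). Trpm6 (0.24, adjusted p = 0.12) and Podxl (0.27, adjusted p = 0.0665) were not called without the 4 mice with Adipoq at 10 CPM or more.

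Sums of immune cell, fibroblast and tubule injury markers rose in Veh, and that of erythroid markers fell. Among all genes tested, 39.0% were called higher in Veh and 34.0% lower. All 6 macrophage markers were called higher in Veh, with a sum of 134 CPM in WT and 659 in Veh and Csf1r as the most abundant, as were all 5 of fibroblasts (189.9 to 1665 CPM, most abundant Col1a1), all 5 of T cells (2.49 to 21.2 CPM, most abundant Cd4), 4 of 5 of B and plasma cells (12.1 to 46.8 CPM, most abundant Jchain) and all 5 of tubule injury (619 to 12768 CPM, most abundant Spp1). All 5 erythroid markers were called lower in Veh, with Hbb-bs the most abundant. Their sum ranged from 1099 to 6560 CPM in WT with a median of 2039, and from 12.7 to 399 CPM in Veh with a median of 109, so the groups did not overlap. The WT mean of 2754 was 1802 without A6, and the Veh mean of 145 was 94.5 without A16. With anti-miR-21 and with ACEi the mean sums of these 6 lists lay between those of WT and Veh. Relative to Veh, 30.5% of all genes tested were called lower with anti-miR-21 and 19.1% with ACEi. The shares called higher were 28.8% and 21.0%. The macrophage sum was 659 ± 50.9 CPM (SD, n = 6) in Veh, 309 ± 50.8 with anti-miR-21 (n = 6) and 367 ± 34.2 with ACEi (n = 3), and all 6 markers were called lower than Veh with each treatment. For fibroblasts the sum was 1665 ± 114 CPM in Veh, 636 ± 165 with anti-miR-21, where 4 of 5 markers were called lower, and 867 ± 56.3 with ACEi, where 2 were. For tubule injury it was 12768 ± 1884 CPM in Veh, 5919 ± 1800 with anti-miR-21 (4 of 5 called lower) and 7189.9 ± 263 with ACEi (2 called lower). The T cell sum was 11.2 ± 3.12 CPM with anti-miR-21 (4 of 5 called lower) and 17.4 ± 4.24 with ACEi (none called). That of B and plasma cells was 16.2 ± 7.94 CPM with anti-miR-21 (2 of 5 called lower) and 33.7 ± 20.03 with ACEi (none called). Erythroid markers summed to 1210.2 ± 277 CPM with anti-miR-21 and 613 ± 209.9 with ACEi, and all 5 were called higher than Veh with each treatment. All 5 fibroblast markers were called lower with ACEi on library totals alone or upper-quartile scaling, as were all 5 of tubule injury with anti-miR-21. On library totals alone 3 tubule injury markers and 1 of B and plasma cells were called lower with ACEi, and all 5 of T cells with anti-miR-21. On that scale 9861 of the 17622 genes tested were called lower with anti-miR-21 and 7389 with ACEi. With upper-quartile scaling these numbers were 6345 and 4317. Leaving out the 4 mice with Adipoq at 10 CPM or more took away all 5 erythroid calls, 1 macrophage call and 1 fibroblast call with ACEi. With anti-miR-21 all 5 T cell markers were then called lower. In that fit 3677 of 17263 genes were called lower with anti-miR-21. With ACEi 1569 were called lower and 3045 higher. The part of these cell types in the levels of the enzyme genes was not tested.

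Of 4 adrenal markers Star alone was tested and did not pass (2.36 to 2.84 CPM summed), but was called higher with library totals alone (0.79, adjusted p = 0.000106), and Cyp11b2 was at 0 in all 20 mice. Of 6 adipocyte markers 5 were called higher in Veh, as were 39.0% of all genes tested. Lep, which was at most 0.674 CPM, did not pass, and Cidec was the most abundant. The sum of the 6 markers was 109, 169 and 90.7 CPM in Veh A1, A4 and A9. It was 8.82, 1.07 and 0.705 CPM in A16, A19 and A20, against 0.738 to 8.38 CPM in WT. The first 3 stood far above every WT mouse, A16 just above the highest of them, A19 within their range and A20 below it. With anti-miR-21 it was 121 CPM in A12 and 1.8 to 22.5 in the others, and the group mean of 27.4 was 8.77 without A12. With ACEi it was 0.426 to 3.18 CPM. The Veh mean of 63.3 was 42.1 without A4 and 3.53 without A1, A4 and A9. Without the 4 mice with Adipoq at 10 CPM or more none of these markers was called between Veh and WT, with 4 that did not pass and 2, Lep and Ucp1, that were too low to be tested. Anti-miR-21 A12, the highest of its group for Pdk4, and Veh A4, the highest of Veh, both had Adipoq over 10 CPM, whereas Veh A20, the second highest of Veh for Pdk4 at 32.6 CPM, had Adipoq at 0, and Veh A1 and A9 had Pdk4 at 22.6 and 19.3 CPM with Adipoq at 29.5 and 26.0. The part of adipose RNA in the level of Pdk4 was not tested beyond leaving out the 4 mice. Without those 4 mice the 8 enzyme genes were all still called, with −1.43 to −0.76 in Veh compared to WT. Relative to Veh they then stood at 0.46 to 0.95 with anti-miR-21 and 0.37 to 0.78 with ACEi. In that fit 5562 of 17263 genes were called lower in Veh, 4330 higher with anti-miR-21 and 3045 higher with ACEi.

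Within each flow cell the 8 enzyme genes kept their direction between Veh and WT. On A, with 4 against 3 mice, the difference in mean log2 CPM ranged from −1.73 for Sucla2 to −0.87 for Cs, and on B, with 2 against 2, from −1.24 for Sucla2 to −0.65 for Cs. Pdk4 differed by 0.41 on A and 0.69 on B. For Sucla2 the difference between anti-miR-21 and Veh was 1.25 on A and 0.63 on B, and that between ACEi and Veh was 0.94 on A and 0.64 on B, where flow cell B held 1 anti-miR-21 mouse and flow cell A 1 ACEi mouse. Between the treatments, anti-miR-21 was above ACEi for all 8 enzyme genes on A, by 0.18 to 0.31. On B it was above for 3 and below for 5, with differences from −0.07 for Pdha1 to 0.13 for Fh1, so the direction of the difference between the treatments did not hold within both flow cells.

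Over the 20 mice, the log2 CPM of the 8 enzyme genes were correlated with each other at Pearson's r of 0.946 to 0.994 over 28 pairs, and the deviations from the group means at 0.45 to 0.934. These points share libraries and scaling. Pdk4 was correlated with the enzymes at −0.326 to −0.25 over the mice and at 0.145 to 0.339 as deviations from the group means. Each enzyme gene had between 2087 and 2441 genes with r above 0.9 among 12569 protein-coding genes, and Pdk4 had 0. The genes most like Sucla2 were Sod2, the mitochondrial superoxide dismutase, Coq9, of ubiquinone synthesis, and Crat, carnitine acetyltransferase, with r of 0.9975, 0.9972 and 0.9966. The closest to Ogdh were Nnt, the mitochondrial transhydrogenase (0.9973), Kl, the gene of Klotho (0.9957), and Mcur1 (0.9948). Cs was closest to Idh2 (0.9932), Pdha1 (0.9923) and Ak3 (0.9899), and Idh2 to Agpat3 (0.9945), Auh (0.9935) and Pink1 (0.9934). The list for Idh3a was Gclm (0.9826), Tmem70 (0.9825) and Apoo (0.9821), and that for Fh1 was Coq9 (0.9962), Hibadh (0.9955) and Fhl1 (0.9953). Mdh2 was closest to Tm2d2 (0.9942) and to Mrps5 and Mrpl10 of the mitochondrial ribosome (0.9932 each), and Pdha1 to Hsd17b4 (0.993), mt-Nd5 (0.9927) and Ngef (0.9927). For Pdk4 the closest genes were Prkar2b (0.7008), St3gal6 (0.6992) and Aoc3 (0.6863).

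Some of the 9 genes share sequence with another annotated gene, and the strand setting of the counting is not given in the sources used here, so reads in the overlaps cannot be told apart. Fh1 overlaps Kmo on the opposite strand, which fell by 2.60 on the log2 scale in Veh, and its FPKM entry is marked as confounded. Pdha1 overlaps Map3k15, which fell by 2.04. Genes nested in Cs and Idh2 had 0 counts (Gm23182) and a change of 0.13 that did not pass (Gm45203, adjusted p = 0.735).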

How the data were processed

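Total RNA of 20 kidneys was sequenced as paired-end reads, which the authors aligned to GRCm38 with the OmicSoft aligner. The deposited table of genes (Ensembl annotation) holds expected counts that the authors did not normalize, of which 29.1% of the values above 0 differed from a whole number by any amount (no tolerance), and these were rounded. The deposited FPKM were computed by the authors per kilobase of transcript and library total. The methods of the study name an Ensembl gene model for them, whereas the annotation deposited with the FPKM table names UCSC genes as the source of most entries, and which applies was not settled here. In the FPKM table, 3 columns that matched no labelled sample were not used. Whether counting used strand is not given in the sources used here.

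Genes were filtered with filterByExpr (minimum count 10, minimum total 15), scaled by TMM and fitted with edgeR's quasi-likelihood test with 4 group coefficients over all 20 mice (16 residual degrees of freedom). Adjusted p-values are Benjamini-Hochberg values over the 17622 genes tested, with a threshold of 0.05. Log2 CPM for correlations and ratios used a prior count of 2. Ratios were compared by two-sided exact permutation tests, adjusted over 56. The code was tested on simulated data. Alternatives were RLE and upper-quartile factors, library totals alone, no filter and a stricter filter, DESeq2, only the groups compared in the fit, flow cell as a term or flow cell A alone, limma on log2(FPKM + 1) and its variants with a pseudocount of 0.1, a mean of at least 1 or TMM factors, and each mouse left out. Leaving out the mice with Adipoq at 10 CPM or more, for the tests, the ratios and the lists, was chosen after seeing the data.

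The 9 genes and all gene lists were chosen with earlier results of these data known. From each list, up to 4 called genes with the largest change between Veh and WT are named, with any called against the direction of the list or not passing, and for each of the 9 genes the 3 protein-coding genes with the highest Pearson correlation. Some genes that this rule selects are not named or plotted here, although the list counts include them. Other named genes were picked after their values were seen. All 125 listed genes matched 1 gene of the count table. Mouse names are unique, so groups share no replicate numbers. No pair of libraries of 1 group agreed within counting noise (smallest chi-square per gene 14.2). Each mouse is 1 animal, and library totals of 28474301 counts or more leave counting error small beside the spread between mice for the 8 enzymes. Versions were Python 3.11.15, numpy 2.4.6, pandas 2.3.3, scipy 1.17.1, matplotlib 3.10.9, R 4.3.3, edgeR 4.0.16, limma 3.58.1 and DESeq2 1.42.0.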

Additional observations from a re-analysis of the deposited data

How the results depend on the processing

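The number of the 8 enzyme genes called was 8 in each of the 5 comparisons with Veh or WT, and 0 between the treatments, with every mouse left out in turn. It stayed exactly the same in 127 of 140 alternatives in all and was lower in 13. For anti-miR-21 compared to WT, 5 were called with library totals alone, 5 with FPKM at a pseudocount of 1, 4 at a pseudocount of 0.1, 5 with FPKM of a mean of at least 1 and 7 on flow cell A alone. For ACEi compared to Veh, 6 were called with library totals alone and with each of these 3 FPKM settings, and for ACEi compared to WT 6 or 7 were. Of 1120 fold changes of single enzymes, 1091 kept direction and call, 29 kept direction and lost the call, and 0 turned. The lost calls were those of Cs, Idh3a, Mdh2 or Sucla2 in comparisons with ACEi or of anti-miR-21 with WT, under library totals, FPKM or flow cell A alone. FPKM are scaled by library totals too. Pdk4 compared between ACEi and WT had a fold change near 0 that turned to −0.0041 with flow cell as a term and ranged from −0.070 to 0.21 with single mice left out. Its leave-out range was 0.23 to 0.50 for anti-miR-21 compared to WT and 0.21 to 0.49 for anti-miR-21 compared to ACEi. Between Veh and WT Pdk4 lost its call with FPKM divided by TMM factors (0.45, adjusted p = 0.0923, limma), beside the losses given above. It gained a call between ACEi and Veh with FPKM (−0.67, adjusted p = 0.0459, limma) and without Veh A19 (−0.70, adjusted p = 0.0243), and between anti-miR-21 and WT with FPKM of a mean of at least 1 (0.52, adjusted p = 0.0478). The cause was not tested.

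Of 686 alternatives for the ratios, 604 kept direction and call, 54 kept direction and lost the call, 1 gained one and 27 turned. Those that turned did so at values near 0. Sucla2 to Suclg2 between Veh and WT was −0.0015 with FPKM and −0.086 without the mice with Adipoq at 10 CPM or more, and ranged from −0.052 to 0.047 with single mice left out. With single mice left out, the anti-miR-21 ratios relative to Veh ranged from −0.015 to 0.025 for Idh2 to the 8 enzymes and from −0.034 to 0.057 for Idh2 to Idh1. The ratios of anti-miR-21 relative to ACEi ranged from −0.025 to 0.016 for Idh3a, from −0.0012 to 0.072 for Fh1, from −0.014 to 0.022 for Mdh2 and from −0.037 to 0.35 for Pdk4, each to the 8 enzymes, from −0.027 to 0.38 for Pdk4 to Pdk2 and from −2.6e-05 to 0.39 for Pdk4 to Pdha1. Without the mice with Adipoq at 10 CPM or more, Idh3a and Mdh2 to the 8 enzymes turned in that comparison, to 0.0030 and −0.014.

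Among all genes tested, 103 were called between anti-miR-21 and ACEi, 66 without a filter, 155 with at least 10 counts in every mouse, 442 with DESeq2, 60 with FPKM at a pseudocount of 0.1, 63 without the mice with Adipoq at 10 CPM or more, 21 without ACEi A23, 25 each without ACEi A11 or A13, 42, 49 and 65 without anti-miR-21 A15, A22 or A10, and more than with the stricter filter without anti-miR-21 A8. Between ACEi and Veh 7074 were called, and 4614 without the mice with Adipoq at 10 CPM or more. No paired analysis was possible because the mouse names are unique to each group. The ACEi group of 3 mice limits each comparison made with it.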
